A study of Mus musculus with 4 samples.

Results

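The genes described here are 10 members of the Notch pathway, chosen by name: the receptors Notch1, Notch2, Notch3 and Notch4, the ligands Jag1, Jag2, Dll1 and Dll4, and the target genes Hes1 and Hey1. They are 10 of the 28545 genes in each of 4 deposited tables of endometrium, the lining of the mouse uterus, all from mice in proestrus, the phase of the cycle before ovulation. The labels name 2 libraries SMAD7fl/fl (treatment "blank") and 2 libraries SMAD7 Cre+/- (treatment "CKO"), called fl/fl and Cre libraries below. The Smad7 locus was engineered in fertilised eggs with a guide RNA, Cas9 mRNA and a donor vector bearing loxP sites, a step that the labels give for both groups, and the label of the second group adds Cre recombinase. The design text speaks of knockout and WT uterine tissue. The age of the mice, the promoter that drives Cre, the cells in which it acts and whether each library is 1 animal are not stated in the labels. The spread behind each p-value is thus that among 4 libraries and may be technical.

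Notch receptors are cell-surface proteins that are switched on by Jagged and Delta-like ligands on a neighbouring cell. A ligand-bound receptor is cut by ADAM proteases and then by gamma-secretase, and its freed intracellular part joins the DNA-binding protein RBPJ in the nucleus and turns on repressors of the HES and HEY families. In the uterus the pathway is known for roles in blood vessels and in the preparation of the stroma for pregnancy.

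Facts of the whole series that bear on these genes were few. Total counts ran from 17444368 to 22950532 per library. Smad7, the targeted gene, was higher and not lower in the libraries labelled Cre, at 228 and 154 CPM (counts scaled to a common library size, with TMM factors) against 34.3 and 36.8 in fl/fl. Its log2 fold change was 2.42 ± 0.28 (SE; adjusted p = 0.0982, edgeR quasi-likelihood). Directions given here are thus those of the libraries labelled Cre, not of a verified loss of Smad7. Stromal and epithelial markers of endometrium were present in each library, beside those of smooth muscle. Markers of T and NK cells and of neutrophils were low in Cre, with sums of 87.1 and 94.7 against 24.9 and 25.2 CPM, and of 141 and 120.1 against 20.7 and 19.4 CPM. The 8 macrophage markers summed to 891 and 520 CPM in fl/fl and 486 and 421 CPM in Cre. Of these, 7 had a log2 fold change below 0 and 1, Mrc1, above it. The biological coefficient of variation was 0.403 between the fl/fl libraries and 0.163 between the Cre libraries. Of 13513 genes that averaged 1 FPKM (a count scaled to gene length and library total) or more, edgeR called 0 (0%) at an adjusted p under 0.05. Without adjustment 1876 had a p under 0.05, and DESeq2 called 843 (6.24%).

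DNA before the RefSeq start of the members is shown first for the genes whose groups did not overlap in the results below, where RefSeq promoter windows (GRCm38.p6) held them. Such windows matched 8 of the 10 members, all but Hes1 and Hey1. Each sequence runs 5′ to 3′ on the gene's own strand and stops at the first base within its window that GENCODE M21 puts in an exon of that gene. For Notch1 the window lies before the RefSeq start but inside the gene as GENCODE M21 draws it, in an intron of a longer transcript that begins at 26516663. Capitals mark CAGAC or its reverse complement, the short SMAD motif, and CACNAG or its reverse complement, the N-box read by HES repressors. The first is Jag1 at chr2:137116645-137116770 on the minus strand, the second Dll4 at chr2:119325534-119325783 on the plus strand, and the third Notch1 at chr2:26503825-26504072 on the minus strand.
Jag1: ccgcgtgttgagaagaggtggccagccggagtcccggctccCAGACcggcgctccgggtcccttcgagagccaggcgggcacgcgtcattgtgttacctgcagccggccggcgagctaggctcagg
Dll4: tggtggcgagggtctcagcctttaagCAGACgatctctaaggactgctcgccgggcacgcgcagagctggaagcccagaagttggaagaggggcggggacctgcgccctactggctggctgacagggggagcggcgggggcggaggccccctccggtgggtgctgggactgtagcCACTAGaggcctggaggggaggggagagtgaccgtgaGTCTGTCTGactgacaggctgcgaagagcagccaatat
Notch1: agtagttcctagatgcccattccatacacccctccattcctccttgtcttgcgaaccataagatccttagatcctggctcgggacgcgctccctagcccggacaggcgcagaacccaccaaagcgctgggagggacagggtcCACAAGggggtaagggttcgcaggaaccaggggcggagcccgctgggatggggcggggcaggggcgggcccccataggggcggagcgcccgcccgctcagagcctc
The stretch of Jag1 held 1 CAGAC, that of Notch1 held 1 N-box, and that of Dll4 held 3 SMAD motifs, a pair of them overlapping by a base, and 1 N-box. Over the full 250 bases before the start, CAGAC on either strand stood in 5 of the 9 windows of the members (Dll1 has 2 windows) and in 42.2% of all 32851 windows, and CACNAG in 4 of 9 and 36.7%. The RBPJ core TGGGAA, searched on both strands, was in 0 of the 9 windows and in 21.6% of all. The longer SMAD palindrome GTCTAGAC was in 0 of 9 and in 0.167% of all windows. These are matches of letters in short windows and say nothing of binding.

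Of the 10 members, all passed the filter on low values and none passed the test between the groups (adjusted p from 0.247 for Jag1 to 0.969 for Notch3, edgeR), at a background of 0% of all genes. Jag1 was the 1 member at an unadjusted p under 0.05 and higher in the Cre libraries, where 7.30% of all genes were, and 0 members were lower, where 6.58% were. Fitted log2 fold changes were above 0 for 8 members and below 0 for 2, with a median of 0.31, beside 47.0% above 0 and a median of -0.03 over all genes tested. In 4 members (Notch1, Jag1, Dll4 and Hey1) both Cre libraries lay above both fl/fl libraries, and in 0 they lay below, where 24.7% and 23.6% of all genes did so. DESeq2 also called 0 of the 10.

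The plot of the members in each library shows that fl/fl replicate 2 was low for the 4 receptors, Jag2 and Dll1. In these 6 of the 10 it lay below fl/fl replicate 1 by more than 1 on the log2 scale, as 9.93% of all genes did, while for Jag1, Dll4, Hes1 and Hey1 it lay above fl/fl replicate 1. In 7 of the 10 the gap between the fl/fl libraries was larger than the difference between the groups, against 59.7% of all genes. For the members that difference is the fitted log2 fold change, and for all genes it is between mean log2 values. The Cre libraries were close to each other, with a median log2 gap of 0.12 in size over the members (0.20 over all genes), while the fl/fl gap had a median size of 1.09 (0.44 over all genes).

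**Figure D1:**
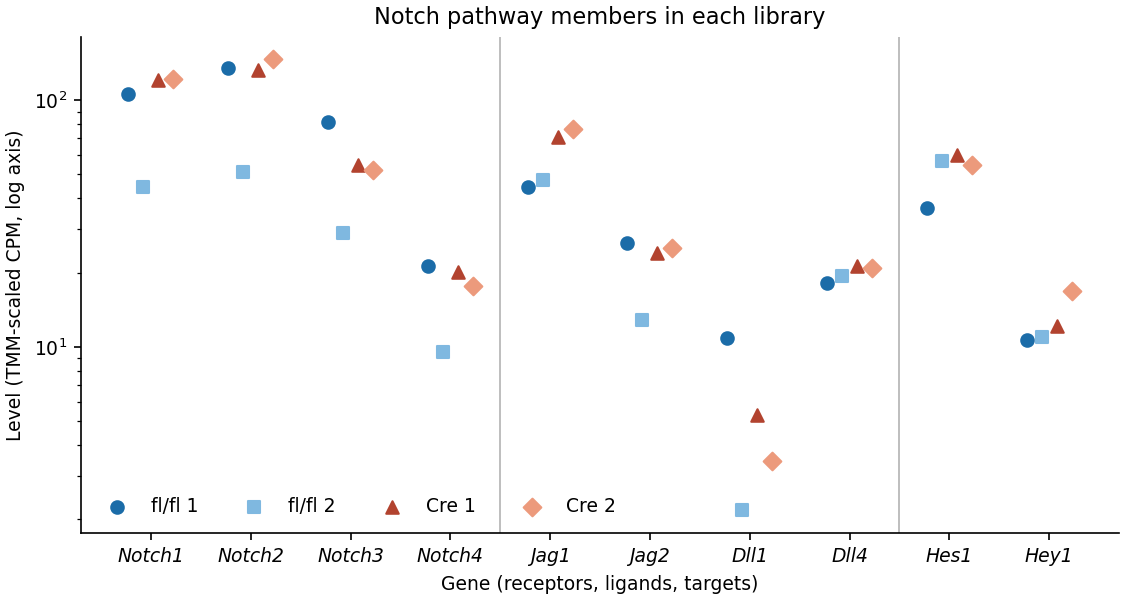
Level of each of the 10 members in the 4 libraries, in TMM-scaled CPM on a log axis; each point is 1 library and vertical lines part receptors, ligands and targets. The square of fl/fl 2 sits far below the other 3 points for Notch1, Notch2, Notch3, Notch4 and Jag2, and both Cre points sit above both fl/fl points for Jag1.

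Gene length, in bases of merged exons, moved with this gap. Over 13513 genes, the log2 ratio of fl/fl replicate 2 to fl/fl replicate 1 had a Spearman correlation of -0.35 with length, a description in which all genes share the same libraries. For the Cre pair it was 0.18. Genes of 8861 bases or more, where Notch1 (14232 bases) and Notch2 (10782 bases) fall, had a median log2 ratio of -0.46 between the fl/fl libraries. For those of 6578 to 8859 bases, with Notch3, Notch4 and Jag2, the median was -0.27, and for those of 1581 to 2508 bases, with Hes1 (2037 bases), it was 0.22. The 4 receptors and Jag2 lay below the lower quartile of the genes of their length, and Dll1, of 4219 bases and at -2.33, lay furthest below. With an offset for gene length in each library, an alternative added after the data were seen, the fl/fl gap of Notch1 went from -1.25 to -0.70, that of Notch2 from -1.39 to -0.98 and that of Notch3 from -1.49 to -1.21. The gap of Dll1 stayed at -2.31. Whether RNA quality plays a part was not tested.

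**Figure D2:**
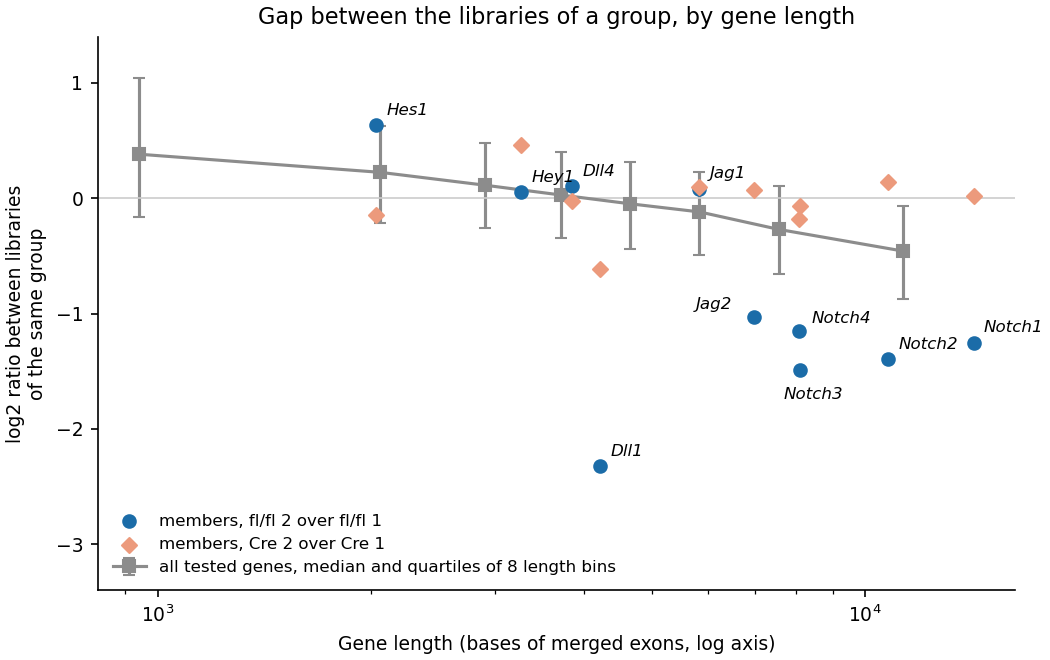
Log2 ratio between the libraries of the same group against gene length (log axis); blue points are the members in fl/fl 2 over fl/fl 1, diamonds the members in Cre 2 over Cre 1, and grey squares with bars the median and quartiles of all tested genes in 8 length bins for fl/fl. The grey line falls from 0.38 in the shortest bin to -0.46 in the longest, and Notch1, Notch2, Notch3, Notch4, Jag2 and Dll1 lie below it.

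Levels can be compared between genes only per length, so their order is given in FPKM, as a mean over the 4 libraries with its range. Hes1 stood first at 25.3 FPKM (18.5 to 29.2), and its range lay above that of every other member. It was followed by Notch2 at 10.8 (4.57 to 13.5) and Jag1 at 10.2 (7.78 to 13.0). Notch1 at 6.89 (2.997 to 8.54) and Notch3 at 6.71 (3.44 to 10.3) changed places between libraries, with Notch1 the higher in 2 of 4. Then came Dll4 at 5.14 (4.82 to 5.47), Hey1 at 3.85 (3.23 to 5.13), Jag2 at 3.17 (1.78 to 3.88), Notch4 at 2.12 (1.14 to 2.70) and Dll1 at 1.30 (0.495 to 2.65). Below Hes1 the range of each gene overlapped that of the next. Within a library some neighbours still kept their order: Jag1 exceeded Notch1, Dll4 exceeded Hey1, Jag2 exceeded Notch4 and Notch4 exceeded Dll1 in 4 of 4.

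Notch1, the receptor with broad roles in cell fate, was at 106 and 44.5 CPM in the fl/fl libraries and at 121 and 122 CPM in the Cre libraries. Both Cre values were above both fl/fl values, by a small margin over fl/fl replicate 1 and a large one over replicate 2. Its log2 fold change was 0.69 ± 0.43 (SE; adjusted p = 0.522, edgeR), and the exact two-sided permutation test gave 0.333, the smallest p that 2 against 2 libraries allow. The log2 fold change went to 1.45 without fl/fl replicate 1 and to 0.19 without fl/fl replicate 2. It shares 9.76% of its exon bases with other genes, so that reads there are uncertain (ENSMUSG00000026923, chr2:26457903-26516663, GRCm38).

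Notch2, the most abundant receptor in FPKM, was at 135 and 51.4 CPM in fl/fl and at 133 and 146 CPM in the Cre libraries. Fl/fl replicate 1 thus lay between the Cre libraries and replicate 2 well below them, and the groups overlapped. The fitted fold was 1.50, with a 95% interval from 0.653 to 3.43 (adjusted p = 0.611, edgeR), which spans a decrease and an increase. Its log2 fold change of 0.58 went to 1.44 without fl/fl replicate 1 and to 0.04 without fl/fl replicate 2.

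Notch3, the receptor of pericytes and vascular smooth muscle, was at 81.4 and 29.0 CPM in fl/fl and at 54.5 and 52.0 CPM in Cre. The Cre libraries lay between the fl/fl libraries, and the log2 fold change was -0.05 ± 0.49 (SE; adjusted p = 0.969, edgeR). It turned to 0.88 without fl/fl replicate 1 and to -0.62 without fl/fl replicate 2. The 9 pericyte markers had summed levels of 983 and 602 CPM in fl/fl and 715 and 708 CPM in Cre, with 0 of 9 at no count. Rgs5, the most abundant of them, was at 399 and 166 CPM in fl/fl and at 176 and 228 CPM in Cre, so it was highest in fl/fl replicate 1, as Notch3 was. The other pericyte markers were mixed. Mcam, the next most abundant, was at 166 and 149 CPM in fl/fl and at 183 and 157 CPM in Cre. Of markers named after their values were seen, Pdgfrb, Abcc9, Higd1b and Ndufa4l2 were highest in fl/fl replicate 1, Abcc9 by little. Kcnj8 and Vtn were highest in fl/fl replicate 2. Cspg4, named after its values were seen, was at 32.8 and 11.3 CPM in fl/fl and at 71.6 and 49.9 CPM in Cre (unadjusted p = 0.0397, adjusted p = 0.330, edgeR). In whole tissue fewer cells of a type and less RNA per cell cannot be told apart, and the part of these cells in the values of Notch3 was not tested.

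Notch4, a receptor of endothelium, was at 21.2 and 9.57 CPM in fl/fl and at 20.0 and 17.7 CPM in Cre. The groups overlapped, and its log2 fold change was 0.29 ± 0.43 (SE; adjusted p = 0.782, edgeR). Summed levels of the 15 endothelial markers were 1211 and 932 CPM in fl/fl and 1073 and 1147 CPM in Cre, with 0 of 15 at no count. Among the most abundant were Eng, a coreceptor of TGF-beta, and Cldn5, a junction protein, with log2 fold changes of 0.35 and -0.80, neither of which passed. The 7 arterial markers summed to 810 and 732 CPM in fl/fl and 761 and 753 CPM in Cre. Its 2 most abundant members went opposite ways. Sox17 was at 224 and 211 CPM in fl/fl and 155 and 149 CPM in Cre. Cxcl12 was at 263 and 203 CPM in fl/fl and 330 and 351 CPM in Cre. Of the 7, 3 had a log2 fold change above 0 and 4 below.

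Shares of the receptors within a library need no scaling between libraries. Notch3 made up 30.8% and 28.3% of the summed receptor FPKM in fl/fl and 22.5% and 20.9% in Cre. Notch1 made up 22.8% and 24.7% in fl/fl and 28.2% and 27.9% in Cre, and Notch2 38.3% and 37.6% in fl/fl and 41.0% and 44.1% in Cre. The groups did not overlap for these 3 shares, which add to 100 with that of Notch4 and so are not independent. For each the exact permutation p was 0.333, the smallest possible. Stated as a ratio, Notch1 was 0.740 and 0.872 times Notch3 in fl/fl and 1.26 and 1.34 times in Cre, so that Notch3 ranked above Notch1 in both fl/fl libraries and below it in both Cre libraries. Notch4 made up 7.13% to 9.38%, and its groups overlapped. Gene length moved with this comparison as well: the log2 fold change between the groups had a Spearman correlation of 0.32 with length over 13513 genes, and Notch1 is longer than Notch3 (8089 bases). With the length offset the log2 fold change was 0.34 for Notch1 and -0.18 for Notch3.

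**Figure D3:**
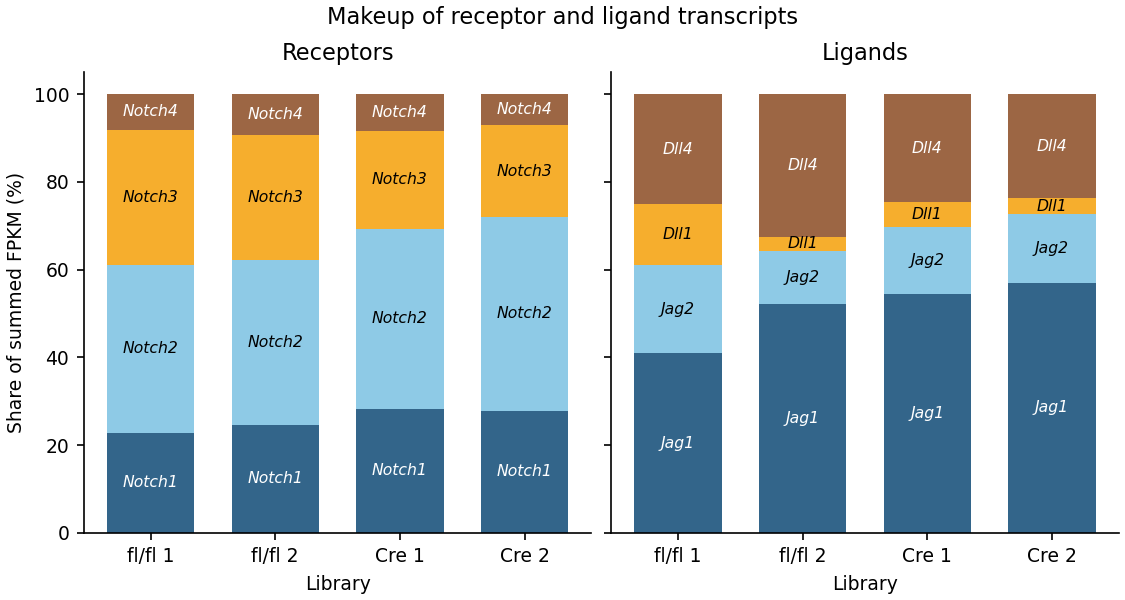
Share of each gene in the summed FPKM of the 4 receptors (left) and the 4 ligands (right), in percent, with 1 bar a library. The Notch3 segment takes 30.8% and 28.3% in the fl/fl libraries and 22.5% and 20.9% in the Cre libraries, and Jag1 is the largest ligand segment in each library.

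Jag1, a Jagged ligand of vessels and epithelia, was the member with the smallest p. Its levels were 44.7 and 47.3 CPM in fl/fl and 71.0 and 76.2 CPM in Cre, from 825 to 1395 counts. The groups were apart and each was narrow. The means were 46.0 ± 1.86 and 73.6 ± 3.66 CPM (SD, n = 2 each), a fold of 1.60 with a 95% interval from 1.14 to 2.24. Its log2 fold change of 0.68 ± 0.19 (SE) had an unadjusted p of 0.0155 and an adjusted p of 0.247 in edgeR's test over all genes, and so did not pass. Leaving out 1 library at a time gave 0.63 to 0.72. It passed without fl/fl replicate 1 (adjusted p = 0.0226, edgeR) and without fl/fl replicate 2 (adjusted p = 0.0143, edgeR), where the lone fl/fl library is assumed to vary like the Cre pair. Notch3 was the other member called in both, but in opposite directions. Without Cre replicate 1 or Cre replicate 2 Jag1 did not pass, at log2 fold changes of 0.72 and 0.63. There the spread comes from the wider fl/fl pair alone, so these fits cannot decide. With the offset for gene length the value was 0.60, and none of its exon bases overlap another gene (ENSMUSG00000027276, chr2:137081456-137116644, GRCm38).

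Markers of other cells did not all go the way of Jag1. The 10 stromal markers summed to 10812 and 9292 CPM in fl/fl and 13274 and 11138 CPM in Cre. Their median log2 fold change was -0.31, with 4 above 0 and 6 below. For the 15 endothelial markers it was -0.17, with 5 above 0 and 10 below. The 10 smooth muscle markers had summed levels of 6575 and 5150 CPM in fl/fl and of 10677 and 9376 CPM in Cre, with 0 of 10 at no count. Acta2, smooth muscle actin, was at 2241 and 2083 CPM in fl/fl and 3203 and 3187 CPM in Cre, and Actg2, the enteric form, was at 344 and 389 CPM in fl/fl and 676 and 534 CPM in Cre. The 7 mesothelial markers summed to 464 and 557 CPM in fl/fl and 778 and 573 CPM in Cre. Most of that sum is Krt19, also in the epithelial list, at 274 and 445 CPM in fl/fl and 530 and 368 CPM in Cre. Wt1 was at 145 and 80.4 CPM in fl/fl and 93.4 and 118 CPM in Cre. The others, named after their values were seen (Upk3b, Msln, Lrrn4, Bnc1 and Nkain4), were higher in both Cre libraries than in both fl/fl libraries. The 8 markers of ciliated cells summed to 119 and 97.2 CPM in fl/fl and 148 and 318 CPM in Cre. Most of the ciliated sum in fl/fl is Tppp3, at 107 and 81.6 CPM in fl/fl and 96.6 and 84.1 CPM in Cre, whereas Foxj1, the transcription factor of motile cilia, was at 1.53 and 3.67 CPM in fl/fl and 26.3 and 74.9 CPM in Cre. For 12 epithelial markers the sums were 2147 and 3902 CPM in fl/fl and 3168 and 2640 CPM in Cre, which overlap. Of these, 6 had a log2 fold change above 0 and 6 below. Wfdc2, the most abundant in FPKM, was at 217 and 685 CPM in fl/fl and 285 and 179 CPM in Cre. Of markers named after their values were seen, Epcam, Cldn3 and Cldn4 were lower in both Cre libraries than in both fl/fl libraries. Their log2 fold changes were -0.37, -0.73 and -2.22, and none passed. Cdh1 and Krt7, likewise named, were higher in both, at 0.27 and 1.10. The part of these cells in the level of Jag1 was not tested.

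Jag2, the other Jagged ligand, was at 26.4 and 12.9 CPM in fl/fl and at 24.1 and 25.2 CPM in Cre. Fl/fl replicate 2 was again the low library, the other 3 differed little, and the groups overlapped. The log2 fold change was 0.33 ± 0.39 (SE; adjusted p = 0.729, edgeR).

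Dll1, a Delta-like ligand, was the least abundant member and the most uneven, with 257 and 38 counts in fl/fl and 104 and 60 counts in Cre. That is 10.9 and 2.18 CPM against 5.29 and 3.46 CPM, so the fl/fl libraries differed 5.01-fold and held the Cre libraries between them. Its log2 fold change was -0.59 ± 0.79 (SE; adjusted p = 0.759, edgeR), and it went to 1.01 without fl/fl replicate 1 and to -1.32 without replicate 2. Some 20.5% of its exon bases are shared with other genes, so its level was uncertain.

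Dll4, the Delta-like ligand of arteries and sprouting vessels, was the steadiest member, at 18.1 and 19.4 CPM in fl/fl and at 21.3 and 21.0 CPM in Cre. Both Cre values were the higher, by little. The fold was 1.13, with a 95% interval from 0.743 to 1.71 (adjusted p = 0.765, edgeR). In FPKM it was at 4.83 ± 0.0131 in fl/fl and 5.44 ± 0.0390 in Cre (SD, n = 2 each).

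Among the ligands Jag1 held the largest share of summed FPKM, 40.9% and 52.3% in fl/fl and 54.4% and 56.9% in Cre. Dll4 held 25.1% and 32.5% in fl/fl and 24.6% and 23.7% in Cre. Both shares had groups that did not overlap (exact permutation p = 0.333 for each, the smallest possible), while those of Jag2 and Dll1 did overlap. The ligand shares add up to the whole and so are not independent. For Dll4 the margin was small, 24.6% in Cre replicate 1 against 25.1% in fl/fl replicate 1. Its CPM were higher, not lower, in both Cre libraries. The summed receptor FPKM was 1.74 and 0.815 times that of the ligands in fl/fl and 1.34 and 1.34 times in Cre.

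Hes1, a repressor that Notch switches on and that other signals reach too, was at 36.7 and 56.9 CPM in fl/fl and at 60.0 and 54.4 CPM in Cre. Here fl/fl replicate 1 was the low library, opposite to the receptors, and replicate 2 fell between the Cre libraries. The log2 fold change was 0.29 ± 0.27 (SE; adjusted p = 0.661, edgeR). It was 0.01 without fl/fl replicate 1 and 0.63 without fl/fl replicate 2.

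Hey1, a target expressed in arterial endothelium among other cells, was at 10.6 and 11.0 CPM in fl/fl and at 12.2 and 16.8 CPM in Cre. The groups did not overlap, but the Cre libraries lay 1.38-fold apart, as wide as the fitted fold of 1.34 (95% interval 0.779 to 2.31, adjusted p = 0.579, edgeR). Hes1 was not low in fl/fl replicate 2, in which the receptors were lowest. Hey1 was there at 11.0 CPM, above fl/fl replicate 1 and below both Cre libraries. In FPKM it was at its lowest there, at 3.23.

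The plot of fold changes sets these side by side. In a fit without an fl/fl library, the spread comes from the Cre pair alone, which was the tighter pair. Calls from such fits are thus weak evidence of a difference. Without fl/fl replicate 1, 6 members passed, all higher in Cre (Notch1, Notch2, Notch3, Notch4, Jag1 and Jag2), where 17.5% of all genes were called higher and 13.9% lower. Without fl/fl replicate 2, 4 passed, Jag1 and Hes1 higher and Notch3 and Dll1 lower, where 10.4% of all genes were called higher and 11.4% lower. Without either Cre library no member passed, but there the spread comes from the wider fl/fl pair alone, so these fits cannot decide.

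**Figure D4:**
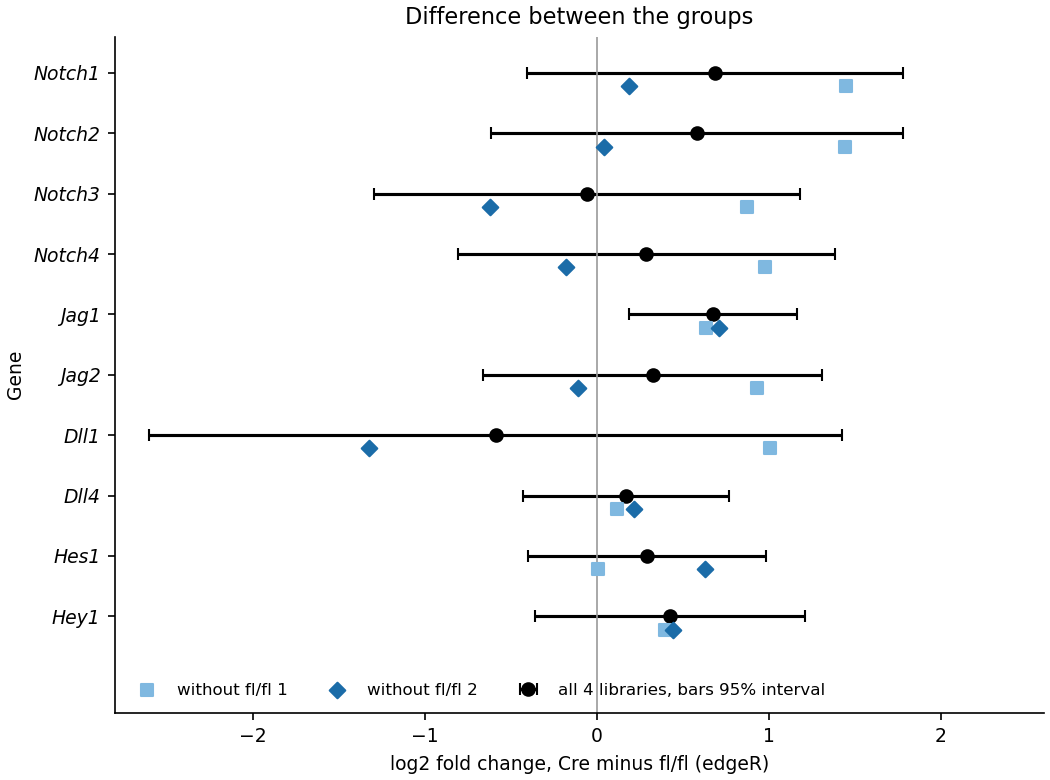
Log2 fold change of each member, Cre minus fl/fl, from edgeR; black points with bars are all 4 libraries with the 95% interval, squares leave out fl/fl 1 and diamonds leave out fl/fl 2. The squares and diamonds lie close together for Jag1, Dll4 and Hey1 and far apart for the receptors, Jag2, Dll1 and Hes1.

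Further genes of the pathway came from a list of 65, of which 64 are in the tables and 54 passed the filter. None passed the test (0 of 54, edgeR). At that level without adjustment, 6 were higher in the Cre libraries and 2 were lower, against 7.30% and 6.58% of all genes. The median log2 fold change was 0.09, with 32 above 0 and 22 below.

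By role, 1 of 2 tested further ligands was at an unadjusted p under 0.05: Cntn1, an adhesion protein proposed as a Notch ligand, at 17.9 and 15.6 CPM in fl/fl and 36.8 and 47.8 CPM in Cre (log2 fold change 1.33 ± 0.25 SE, adjusted p = 0.146, edgeR). Egfl7, a secreted protein of endothelium, was at 20.2 and 34.7 CPM in fl/fl and 21.7 and 13.2 CPM in Cre. None of the 5 genes for receptor glycosylation and folding did so; Lfng, a Fringe sugar transferase, was at 49.1 and 30.4 CPM against 21.9 and 27.8 CPM, and Poglut1, a glucosyltransferase, had -0.19. Of 9 genes for the proteases, Aph1b, a gamma-secretase subunit, was at 15.4 and 16.7 CPM in fl/fl and 25.1 and 31.7 CPM in Cre (0.82, adjusted p = 0.272, edgeR), and Psenen, another subunit, had -0.29.

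Among 14 genes that route ligands and receptors, 3 had an unadjusted p under 0.05. Numb and Numbl, which encode inhibitors of Notch receptors, had log2 fold changes of 0.66 and 0.84, with Numb at 39.9 and 34.2 CPM in fl/fl and 61.0 and 56.3 CPM in Cre. Dtx4, a Deltex ubiquitin ligase, was at 115 and 65.3 CPM in fl/fl and 47.4 and 46.3 CPM in Cre (-0.95 ± 0.32 SE, adjusted p = 0.299, edgeR). Of 15 genes of the nuclear complex 0 reached that level. Rbpj, the DNA-binding partner of all the receptors, was at 133 and 91.3 CPM in fl/fl and 121 and 132 CPM in Cre (0.18, adjusted p = 0.780, edgeR), and had -0.18 with the length offset. The corepressor Ncor1 had 0.63 and the deacetylase Hdac1 -0.31. With the length offset these were 0.27 and -0.23, and Numb and Numbl had 0.70 and 0.62.

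Of 9 tested further targets, 3 had an unadjusted p under 0.05. Nrip1, a nuclear receptor corepressor, was at 89.3 and 86.0 CPM in fl/fl and 190.1 and 215 CPM in Cre (log2 fold change 1.21 ± 0.21 SE, adjusted p = 0.133, edgeR). Id3, which BMP signals induce too, was at 187 and 104 CPM in fl/fl and 54.2 and 53.1 CPM in Cre (-1.44 ± 0.33 SE, adjusted p = 0.191, edgeR), and Sox9, a transcription factor of glands, was at 9.14 and 23.7 CPM in fl/fl and 33.7 and 46.6 CPM in Cre. Nrip1, Id3 and Cntn1 passed in DESeq2, where 6.24% of all genes did. They were named for small p-values in the same libraries, so this is no added support. Leaving out 1 library at a time gave 1.12 to 1.29 for Nrip1, -1.81 to -0.96 for Id3 and 1.13 to 1.50 for Cntn1. With the length offset the log2 fold changes were 0.86 for Nrip1, -1.29 for Id3, 1.32 for Sox9 and 1.08 for Cntn1. Heyl and Hey2, relatives of Hey1 named after their values were seen, did not move alike. Heyl was at 34.0 and 7.05 CPM in fl/fl and 14.5 and 13.7 CPM in Cre, the order of libraries seen in Notch3, and Hey2 was at 5.14 and 2.98 CPM in fl/fl and 5.75 and 10.02 CPM in Cre. Hes5 had 0 counts in all 4 libraries.

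**Figure D5:**
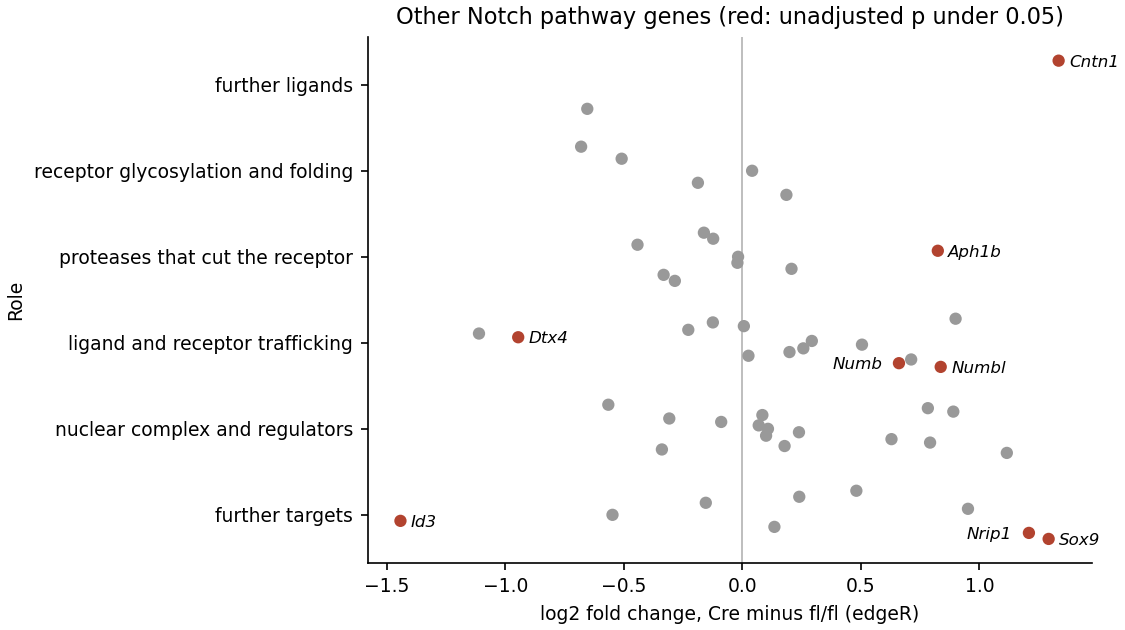
Log2 fold change, Cre minus fl/fl, of the 54 tested further genes of the pathway by role, from edgeR; each point is 1 gene and red points have an unadjusted p under 0.05. Points of each role lie on both sides of 0, with Cntn1, Sox9 and Nrip1 furthest to the right and Id3 furthest to the left.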

How the data were processed

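Poly(A) RNA isolated with Trizol went into NEBNext Ultra libraries, per the labels' protocols. HISAT2, HTSeq 0.13.5 and GRCm38 appear in the submitters' processing notes, and whether counting used strand is not given in the sources used here. Each deposited table pairs a raw read count with FPKM, per the file headers. The authors' FPKM were checked against the counts: the gene length they imply was equal between libraries, to a tolerance of 1e-06, in 23463 of 23463 genes counted in more than 1 library. Positions and shared exon bases are from GENCODE M21 on GRCm38.

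Genes averaging 1 FPKM or more were tested on counts with edgeR 4.0.16 (R 4.3.3): TMM scaling, quasi-likelihood tests, group as the only term, 2 residual degrees of freedom and Benjamini-Hochberg adjustment over 13513 genes. P-values are two-sided. SE is the log2 fold change over the root of the test statistic. CPM use library totals of the tested genes. A floor of 3 counts is 0.127 to 0.173 CPM. Log2 gaps over all genes use CPM + 0.1. The procedure was tested on simulated data with equal spread in both groups and no trend with gene length, unlike these data. Alternatives used DESeq2 1.42.0, limma 3.58.1 on log2(FPKM + 1) and log2(FPKM + 0.1), other filters and scalings, a block for the replicate number, removal of each library and, added after the data were seen, offsets for gene length. The members and lists were chosen with earlier results of these data known. Named genes are the members, Smad7 and, in each role list, up to 3 of the smallest p under 0.05, filled to 2 with the most abundant, and Rbpj. In marker lists they are the 2 most abundant. The motifs searched were chosen after the data were seen.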

Additional observations from a re-analysis of the deposited data

How the results depend on the processing

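Of the 9 alternatives that keep all 4 libraries, 8 tested all 10 members and called 0, with a median log2 fold change of 0.25 to 0.40. The filter at a mean FPKM of at least 5 kept 6 members (not Notch4, Jag2, Dll1 or Hey1) and called 0, with a median of 0.47 over those 6. Leaving out 1 library gave 0 to 6 members called and a median of 0.11 to 0.90, with 0.90 and 6 called without fl/fl replicate 1. Over all genes, 0 were called, but 1 with a mean FPKM of at least 5, 1928 with no filter on low values, 843 with DESeq2, and 0 to 4249 with 1 library left out (4249 without fl/fl replicate 1 and 2942 without fl/fl replicate 2); the cause was not tested. Notch3, at -0.05, turned to 0.088 with limma on log2(FPKM + 1), to 0.13 with limma on log2(FPKM + 0.1) and to 0.13 with the replicate block, and Rbpj to -0.18 with gene length offsets. With 1 library left out the ranges that crossed 0 were -0.62 to 0.88 for Notch3, -0.18 to 0.98 for Notch4, -0.11 to 0.93 for Jag2, -1.32 to 1.01 for Dll1, -0.68 to 0.25 for Psenen and -0.075 to 0.47 for Rbpj; each changed sign without an fl/fl library. Samples of the same number share only that number: deviations of same-numbered libraries correlated at -0.08 over 13513 genes, and the replicate block called 0 genes and 0 members, with a member median of 0.40. The lowest count of a member was 38, for Dll1 in fl/fl replicate 2.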
